A study of Mus musculus with 7 samples.

Results

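Tbx6, Msgn1, Snai1, Pcdh8, Dll1 and Dll3 are 6 genes by which cells of the presomitic mesoderm are specified and recognised. They were taken by symbol from the authors' expression table of 25965 genes, and all 6 were among the 13997 genes with enough reads to be tested. RNA was sequenced from the tail end of female FVB/N mouse embryos at E9.5, cut about 1 somite length behind the youngest somite, a piece labelled postsomitic mesoderm in the sample labels and presomitic mesoderm in the series title. The wild-type group (Smchd1 +/+) had 3 libraries, and the null group (Smchd1 MommeD1/MommeD1, homozygous for an allele that the labels call null) had 4, although the design text names 3. Smchd1 encodes a chromosomal protein known for its part in X-chromosome inactivation. MommeD1 is a germline allele, so all tissues of a null embryo carry it. Libraries are lettered within each group in the order of the table, because the table does not say which numbered sample each column is.

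The presomitic mesoderm is the unsegmented tissue on both sides of the neural tube from which somites bud at the anterior end, while the tailbud supplies new cells at the posterior end. Wnt signalling and T drive posterior progenitors into this fate through the transcription factors Tbx6 and Msgn1, and Snai1 represses epithelial genes as the cells become migratory. Notch signalling through the ligand Dll1 runs the segmentation clock together with Dll3, a divergent family member that acts inside the signalling cell, and the protocadherin Pcdh8 takes part in the remodelling of cell adhesion when a somite boundary forms.

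Tbx6 lies at chr7:126781483-126785560 on the plus strand of mm10, Msgn1 at chr12:11208382-11208948 on the minus strand and Snai1 at chr2:167538195-167542814 on the plus strand. Pcdh8 lies at chr14:79766772-79771312, Dll1 at chr17:15367354-15376872 and Dll3 at chr7:28293553-28302238, all 3 on the minus strand. Each is a protein-coding gene, and none of the 6 rows overlapped another row of the table. Tbx6 and Dll3 share a chromosome but are far apart on it.

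The stretch from 250 to 101 bases before the transcription start is shown for Msgn1, Snai1 and Pcdh8, because these windows hold a match to a motif of the pathways that act on these genes and no annotated exon. The sequences are RefSeq promoters on GRCm38.p6, written 5′ to 3′ on the strand of the gene. Capitals mark matches to CTTTGA (TCF/LEF factors, the nuclear effectors of Wnt), TTCCCAC (RBPJ, the nuclear effector of Notch), CAGGTG (an E-box bound by Snail factors) or CTTTGT (SOX factors), on either strand.
Msgn1, chr12:11209049-11209198, minus strand: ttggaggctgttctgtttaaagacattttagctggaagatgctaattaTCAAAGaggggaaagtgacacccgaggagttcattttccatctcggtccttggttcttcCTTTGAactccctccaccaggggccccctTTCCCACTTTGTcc
Snai1, chr2:167537945-167538094, plus strand: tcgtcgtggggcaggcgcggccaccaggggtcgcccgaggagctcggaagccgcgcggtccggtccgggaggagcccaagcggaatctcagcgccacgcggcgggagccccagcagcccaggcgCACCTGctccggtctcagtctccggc
Pcdh8, chr14:79771413-79771562, minus strand: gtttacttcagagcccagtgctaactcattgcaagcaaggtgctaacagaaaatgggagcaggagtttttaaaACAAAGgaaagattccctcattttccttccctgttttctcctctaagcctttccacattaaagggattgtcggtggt

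The Msgn1 window held 2 TCF/LEF matches, which start 202 and 143 bases before the transcription start, and an RBPJ match at 114 bases, whose last base is shared with a SOX match. Over the full promoter window of 250 bases before to 50 after the start, Msgn1 was the only member with a TCF/LEF or RBPJ match. Among all 32851 RefSeq mouse promoters of that length, 16% held the TCF/LEF motif and 6.38% the RBPJ motif. Snai1 carried the Snail E-box 126 bases before its start, and Dll1 and Dll3 each had one too, against 20.2% of all promoters. Pcdh8 had a SOX match 177 bases before its start, a motif held by 18.7% of all promoters. The T-box motif TCACAC was found in Dll3 alone (14.5% of all promoters), and Tbx6 held none of these motifs. A match describes the letters of the window and is not evidence of binding.

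Between 19622596 and 23847381 reads fell in listed genes per library, which were 28.8% to 37.9% of the denominator of the deposited log2 RPM values, where RPM is the reads of a gene scaled to a library denominator. Because this share differed, the median log2 change of all tested genes was 0.16 on the deposited scale, and the changes below are given on a centred scale, log2 RPM minus the autosomal median of the library, where that median change was -0.03. Smchd1 had 5572 to 6552 reads in the wild-type libraries and 1922 to 2372 in the null libraries, and fell by 1.67 on the centred log2 scale (SE 0.07, limma adjusted p = 9.5e-05). Whether each library is a separate embryo is not stated in the labels, so a p-value here measures only how far these libraries spread, which may be technical in part. Wild-type library B stood apart in some genes of the tailbud. Wnt3a, a tailbud Wnt ligand, had 118 reads there against 1102 to 1752 in the other libraries. Cyp26a1, the tailbud enzyme that degrades retinoic acid, had 200 against 2033 to 3100. T, the Brachyury gene of the tailbud, was detected in all libraries, with 2059 reads in wild-type B and 4277 to 6692 elsewhere. Other listed upstream and tailbud regulators went the other way. Nkx1-2, Cdx1 and Sox2 had their highest centred values in wild-type B, at 1.27, -0.76 and 0.80.

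A difference between the genotypes was not found for any of the 6 genes. In the limma test across all genes, 0 of 6 passed an adjusted p of 0.05, beside 0.0572% of all tested genes (8 genes), and 0 of 6 had an unadjusted p under 0.05, beside 14.0%. On the deposited scale 0 of 6 passed, beside 0.0429%, and 1 of 6, Msgn1, had an unadjusted p under 0.05, beside 14.0% of all genes, so 1 of 6 is near the background. The voom fit on recovered reads also called 0 of 6. In every one of the 6 genes the ranges of the groups overlapped, whereas 12.7% of all tested genes had groups that did not overlap (6.51% with every null library above and 6.24% with every one below the wild-type libraries). On the centred scale the mean was higher in null tissue for 3 genes (Tbx6, Msgn1 and Snai1) and lower for the other 3, and the median change of the 6 was -0.02, beside -0.03 over all genes. Tissue pieces were sequenced whole, so fewer cells of a type and less RNA per cell cannot be told apart in any of these values.

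**Figure D1:**
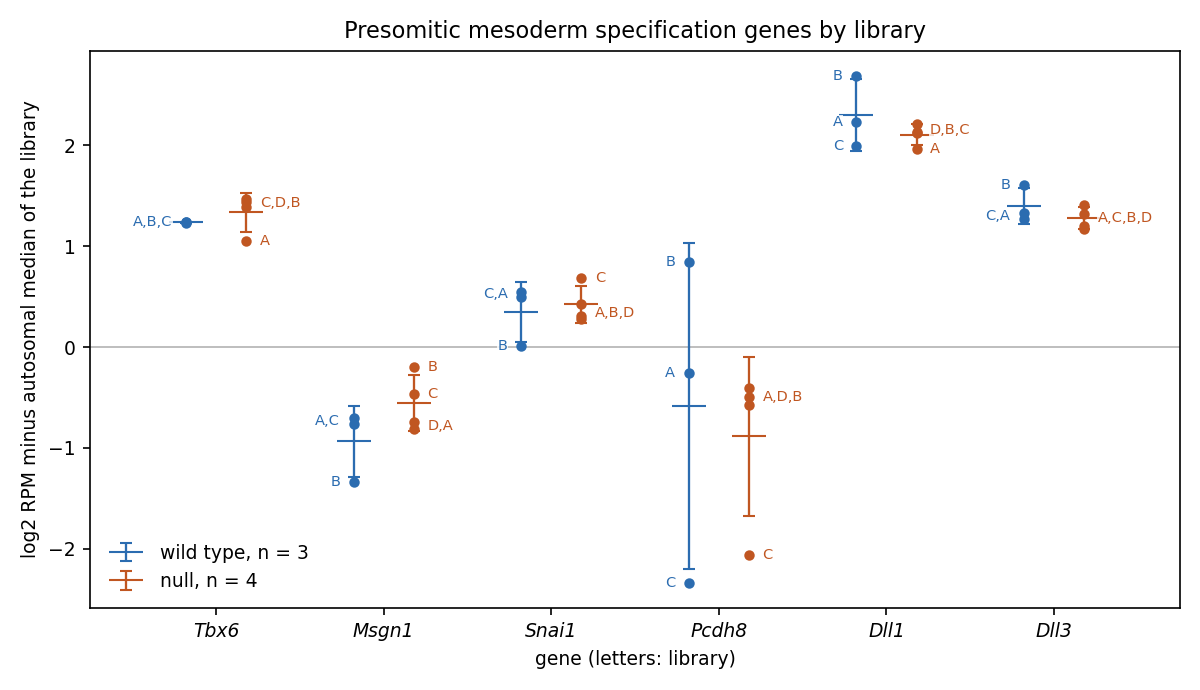
Centred log2 RPM of the 6 genes in each library (letters, joined from low to high where points are close), with wild-type libraries in blue and null libraries in orange; horizontal lines are group means and vertical bars the SD (n = 3 and n = 4). The groups overlap for each gene, wild-type B is highest for Pcdh8, Dll1 and Dll3 and lowest for Msgn1 and Snai1, and Pcdh8 falls to -2.06 in null C and -2.34 in wild-type C.

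Tbx6, the T-box factor that commits progenitors to paraxial mesoderm over a neural fate, had 2671, 2233 and 2211 reads in wild-type libraries A, B and C. In null libraries A, B, C and D it had 2303, 3199, 2828 and 3168 reads. On the centred scale the wild-type libraries lay at 1.23, 1.24 and 1.24 and the null libraries at 1.05, 1.47, 1.39 and 1.43. The 3 wild-type values were thus nearly equal, 3 null libraries lay above them and null A lay below them. The wild-type values were nearly equal on the centred scale only, where their SD was 0.004, beside 0.22 on the deposited scale. The change was 0.10 (95% interval -0.12 to 0.32, SE 0.10, limma adjusted p = 0.597), a fold of 1.07 with an interval of 0.918 to 1.25. Without null A, the null library below the wild-type values, it was 0.19, with an unadjusted p of 0.0034 and an adjusted p of 0.223 in limma. That p rests on the small wild-type spread after centring. Leaving out any other single library gave 0.05 to 0.10, with limma adjusted p from 0.644 to 0.844.

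Msgn1, a basic helix-loop-helix factor that drives cells out of the progenitor state, is itself a target of Wnt signalling. It had 667, 375 and 573 reads in wild-type A, B and C, and 663, 1007, 781 and 669 in null A, B, C and D. Null B and C were the highest and wild-type B the lowest, while null A and D lay within the wild-type range on the centred scale. The centred mean was -0.94 ± 0.35 (SD, n = 3) for wild-type and -0.56 ± 0.28 (SD, n = 4) for null libraries. The change of 0.38 was the largest of the 6 in size (95% interval -0.06 to 0.83, SE 0.19, limma adjusted p = 0.370), a fold of 1.30 with an interval of 0.957 to 1.77. On the deposited scale the change was 0.57, with an interval of 0.11 to 1.04, an unadjusted p of 0.0196 and a limma adjusted p of 0.29. Without wild-type B, the library that was also low in Wnt3a and T, the centred change was 0.18.

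Snai1, a zinc finger repressor of E-cadherin, had 1662, 952 and 1317 reads in wild-type A, B and C. The null libraries A, B, C and D had 1347, 1434, 1731 and 1580 reads. Wild-type B was again the lowest, and the other libraries of the groups interleaved, with centred values from 0.27 to 0.68. The change was 0.07 (95% interval -0.26 to 0.41, SE 0.15, limma adjusted p = 0.802), and it turned to -0.10 without wild-type B. Cdh1, which encodes E-cadherin and is a known target of Snai1 repression, differed by 0.62 (limma adjusted p = 0.352), and by 0.32 without wild-type B. Cdh1 is also a listed hindgut marker, and 7 of the 9 hindgut genes tested had a change above 0 (median 0.34). Whether the change of Cdh1 has to do with Snai1 was not tested.

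Dll1, the Notch ligand that signals between presomitic cells, had 5321, 6111 and 3713 reads in wild-type A, B and C. It had 4334, 5053, 4995 and 5105 reads in null A, B, C and D. Wild-type B was the highest and null A and wild-type C the lowest, so that all null libraries lay within the span of the wild-type libraries apart from null A, at 1.96 on the centred scale against 1.99 for wild-type C. The centred mean was 2.30 ± 0.35 (SD, n = 3) for wild-type and 2.11 ± 0.10 (SD, n = 4) for null libraries, a change of -0.20 (95% interval -0.53 to 0.13, SE 0.14, limma adjusted p = 0.484). Without wild-type B the change was -0.003.

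Dll3, which antagonises Notch within the cell that makes it and is needed for regular somites, had 2846, 2890 and 2252 reads in wild-type A, B and C and 2513, 2885, 2485 and 3116 in null A, B, C and D. On the centred scale wild-type B was highest at 1.61 and null A lowest at 1.17, with the groups interleaved between them. The change was -0.12 (95% interval -0.34 to 0.09, SE 0.09, limma adjusted p = 0.488), a fold of 0.918 with an interval of 0.792 to 1.06. On the deposited scale the sign was the opposite, at 0.07.

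Pcdh8, also called paraxial protocadherin, had 950, 1697 and 185 reads in wild-type A, B and C. In null A, B, C and D it had 749, 870, 258 and 833 reads. The gene was therefore low in 1 library of each genotype, wild-type C and null C, and highest in wild-type B. From the lowest to the highest library Pcdh8 spanned 9.04-fold on the centred scale, whereas the other 5 members spanned 1.34-fold (Tbx6) to 2.20-fold (Msgn1). Its change was -0.30 (95% interval -1.92 to 1.32, SE 0.71, limma adjusted p = 0.836), a fold of 0.812 with an interval from 0.265 to 2.49, so that even a change of over 2-fold in either direction lay within the interval. The change was -1.18 without wild-type C and 0.41 without wild-type B.

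**Figure D2:**
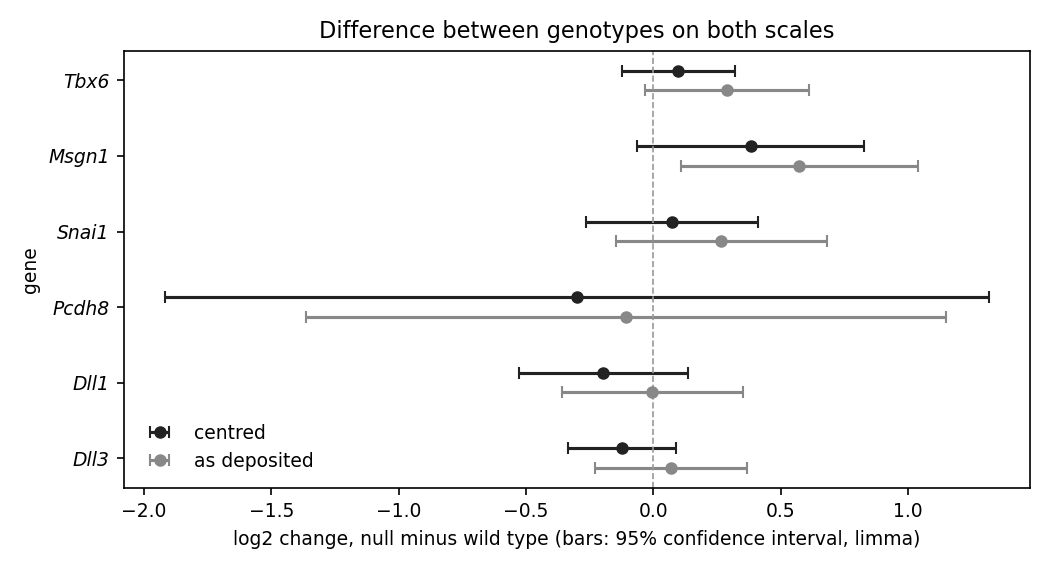
Log2 change of each gene, null minus wild type, on the centred scale and as deposited, with 95% intervals from limma. Each centred interval includes 0, and that of Pcdh8, from -1.92 to 1.32, is the widest.

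The spread within groups was large for these genes. The within-group SD of Pcdh8 was 1.19 on the centred log2 scale, and 99.8% of the 2254 tested genes of similar mean level (within 0.5 log2) had a smaller one. For Dll1 the SD was 0.24, larger than in 98.2% of genes of its level, and for Snai1 it was 0.24, larger than in 92.5%. Tbx6, Dll3 and Msgn1 had SDs of 0.15, 0.14 and 0.31, larger than in 89.9%, 88.5% and 87.4% of genes of their levels. The 95% intervals of the 6 changes accordingly had a median width of 0.67, beside 0.418 over all tested genes.

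Libraries of both genotypes share the last number of their column names (18, 21 or 22), which the sources used here do not explain. With number 18 (null A and wild-type B) the null value of Pcdh8 minus the wild-type value was -1.41. With number 21 (null D and wild-type C) it was 1.84, and with number 22 (null B and C and wild-type A) it was -0.98. These differences hold the high Pcdh8 of wild-type B and its low values in wild-type C and null C. Across the 3 numbers 0 of the 6 genes kept one sign, a count for which the share over all genes was not worked out.

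**Figure D3:**
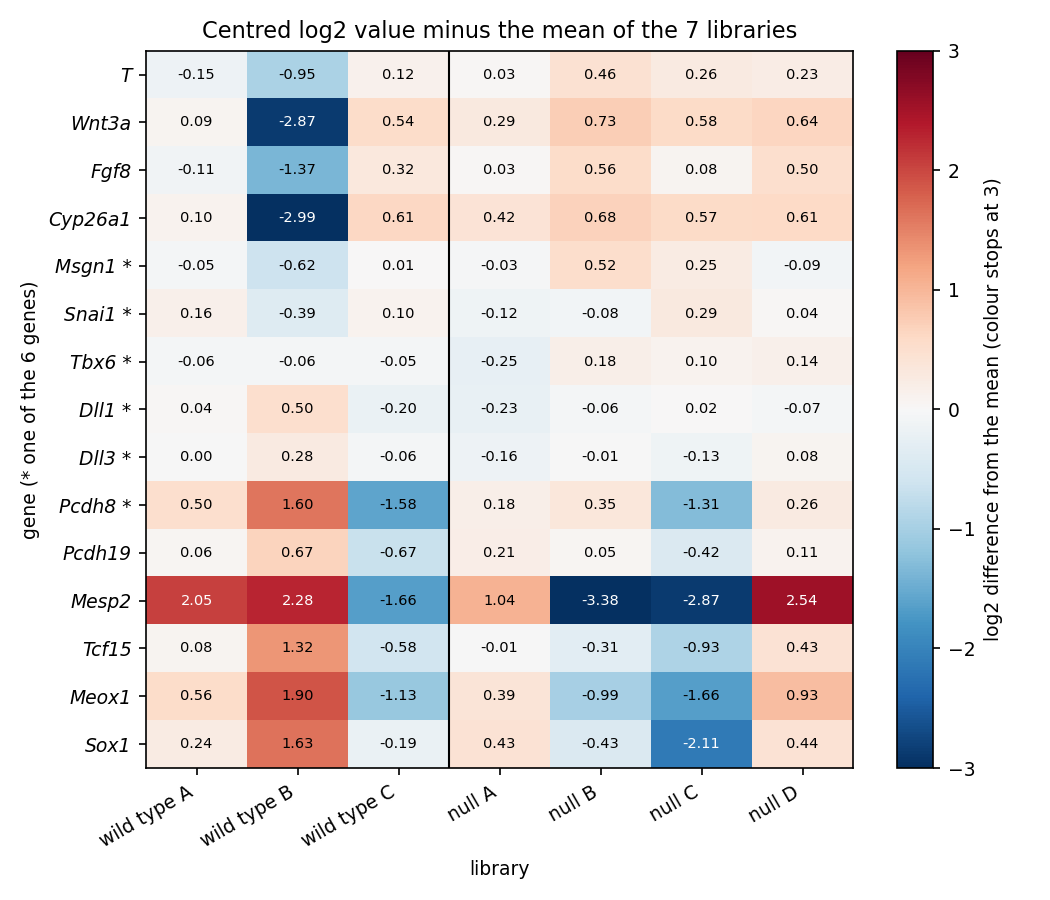
Centred log2 values of the 6 genes and of listed tailbud, neural and somite genes (rows), each relative to its mean over the 7 libraries (columns). Wild-type B is low in Wnt3a and Cyp26a1, and null C and wild-type C are low in Pcdh8, Meox1 and Tcf15. Null B is also low in Meox1 but not in Pcdh8.

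The low-Pcdh8 libraries were also low in some genes of the anterior presomitic mesoderm, the somite and the neural tube but not in others. This comparison was made after the values were seen. Of the 10 somite formation genes tested, 6 were below their median over the 7 libraries in both null C and wild-type C, beside 13.0% of all tested genes. Pax9, Aldh1a2, Epha4 and Efnb2 were not, and Pax9, for one, had 647 reads in null C and 284 in wild-type C, against 28 in wild-type B. Meox1, a homeobox gene of newly formed somites, had 316 reads in null C and 396 in wild-type C. It was also low in null B, a library not low in Pcdh8, with 540 reads. The remaining libraries had 1352 to 3272, the most in wild-type B. Tcf15, needed for somites to become epithelial, had 155 and 171 reads in null C and wild-type C, 254 in null B and 647 in wild-type B. Mesp2, which marks the next boundary to form, had 4 reads in null C, 8 in wild-type C and 3 in null B, beside 62 to 184 in the other 4 libraries, so null B was low in Mesp2 but not in Pcdh8. Of the 11 neural tube markers tested, 6 were likewise below their median in both null C and wild-type C, so this was not particular to somite genes. Among those markers, Sox1, which is no mesoderm gene, had 102 reads in null C and its most, 1199, in wild-type B. Wild-type C, with 334 reads of Sox1, was close to null B, with 350. The summed markers of other tissues also differed between these libraries, and their part in the spread of Pcdh8 was not tested.

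The summed level of the neural tube markers was 97.3, 155 and 64.2 RPM in wild-type A, B and C and 53.8 to 119 RPM in the null libraries. Hindgut markers summed to 134, 80.6 and 116 RPM in wild-type A, B and C and to 137 to 161 RPM in the null libraries. Surface ectoderm markers summed to 53.1 RPM in wild-type B and 86.9 to 119 RPM elsewhere. Endothelial markers summed to 152 RPM in wild-type B and 222 to 351 RPM elsewhere, and blood markers to 67.8 RPM in wild-type B and 104 to 154 RPM elsewhere. Wild-type B thus had the highest sum for neural tube and the lowest for these other 4 lists. Notochord markers summed to 42.5 to 56.5 RPM in the null and 24.5 to 33.0 RPM in the wild-type libraries. These sums are not centred, so the shift between groups is in them. Of the 8 notochord genes tested in limma, 0 passed an adjusted p of 0.05. In that list 4 had an unadjusted p under 0.05, and 3 had groups that did not overlap on the centred scale. Of the 9 hindgut genes tested, the same counts were 0, 5 and 3. Over all tested genes the shares were 0.0572%, 14.0% and 12.7%. Lateral plate and intermediate mesoderm markers spanned 168 to 352 RPM in null and 172 to 308 RPM in wild-type libraries, and differentiated somite markers 27.0 to 40.3 and 22 to 37.7 RPM. No marker that the table lists was at 0 reads in all libraries.

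Across the 7 libraries some members varied together and others in opposite directions, given here as descriptions over points that share library, depth and tissue piece. Dll1 and Dll3 had a Pearson correlation of 0.84 on the centred scale, which was 0.36 without wild-type B. Snai1 and Pcdh8 had one of -0.77, which was -0.57 without that library, and Msgn1 and Dll3 one of -0.70, which was -0.11 without it. Tbx6 and Msgn1, which act at the same step, had a correlation of 0.48, and of 0.57 without wild-type B.

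Pcdh8 varied with a list of neural tube markers (11 of 11 tested genes with a correlation above 0, median 0.78) and with somite formation genes (8 of 10, median 0.64), beside 56.9% of all genes and a median of 0.09. Without wild-type B these medians were 0.63 and 0.48. Pcdh8 was not alone in this. Dll3 had 11 of 11 neural tube markers (median 0.68) and 9 of 10 somite formation genes (0.69) above 0. Dll1 had 10 of 11 (0.46) and 8 of 10 (0.58), and for both ligands 58.1% of all genes were above 0. Without wild-type B the medians were 0.48 and 0.46 for Dll3 and -0.24 and -0.02 for Dll1. Msgn1 varied with the list of upstream and tailbud regulators (13 of 19 above 0, median 0.78), beside 41.9% of all genes and a median of -0.20, and the list's median was 0.49 without wild-type B. This was not particular to that list. Msgn1 also varied with markers of surface ectoderm (9 of 9, median 0.74), endothelium (11 of 11, 0.77), hindgut (8 of 9, 0.72) and notochord (7 of 8, 0.65). Without wild-type B these medians were 0.41, 0.45, 0.17 and 0.39. Neural tube markers (1 of 11, median -0.70) and somite formation genes (2 of 10, median -0.78) went the other way. With T, the correlation of Msgn1 was 0.91, and it was 0.78 without wild-type B. These are 7 points each, and all rest on the same libraries.

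Ratios between members within a library do not depend on how the libraries were scaled. Of the 15 pairs, 0 had an adjusted p under 0.05 and 0 an unadjusted one, by exact permutation of the libraries (two-sided, 35 splits, smallest possible p 0.0286). The smallest adjusted p over the 15 pairs was 0.514. With so few splits, a pair that separated completely could not by itself reach an adjusted p of 0.05. The adjusted count therefore cannot show that the ratios are alike. The log2 ratio of Msgn1 to Dll1 was -3.24 ± 0.70 (SD, n = 3) for wild-type and -2.66 ± 0.25 (SD, n = 4) for null libraries, a difference of 0.58 (exact permutation p = 0.171). The log2 ratio of the Notch ligands Dll1 to Dll3 was 0.90 ± 0.18 (SD, n = 3) for wild-type and 0.83 ± 0.13 (SD, n = 4) for null libraries (difference -0.07, exact permutation p = 0.543). In none of the 15 pairs were the groups free of overlap.

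Per kilobase of exon, Tbx6 was the most abundant of the 6 transcripts, at 20.2 ± 3.17 RPM per kilobase (SD, n = 3) in wild-type and 24.8 ± 3.91 (SD, n = 4) in null tissue. In wild-type tissue Dll1 and Dll3 followed, and in null tissue Msgn1 came before them. Dll1 stood at 18.4 ± 4.89 in wild-type and 18 ± 2.02 in null tissue, and Dll3 at 14.4 ± 2.45 and 15 ± 1.62. Msgn1 stood at 13.5 ± 4.10 and 19.8 ± 3.90, and Snai1 at 12.5 ± 3.81 and 14.7 ± 2.54. Pcdh8 was the lowest, at 3.23 ± 2.56 in wild-type and 2.28 ± 0.902 in null tissue. The order of neighbours held in all 7 libraries for Dll1 over Dll3, Msgn1 over Snai1 and Snai1 over Pcdh8, in 6 of 7 for Tbx6 over Dll1, and in only 2 of 7 for Dll3 over Msgn1, a pair whose order is not settled. These levels are not centred, so the shift between groups is in them. They rest on annotated exon lengths of 613 bases (Msgn1) to 4538 bases (Pcdh8). The row of Msgn1, a gene of 1 exon, spans 567 bases in the authors' table, and over that length its wild-type level was 14.6. With the longest transcript as the length, Dll1 came above Tbx6 in wild-type tissue.

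**Figure D4:**
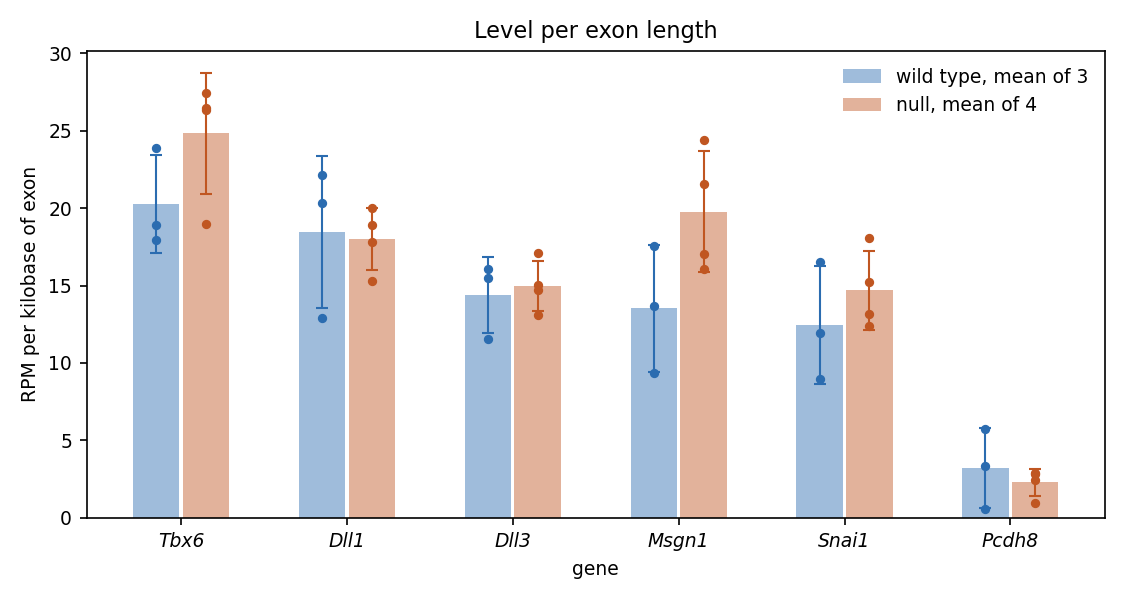
Level of each gene in RPM per kilobase of exon in each library (points), with the mean (bar height) and SD (vertical lines) of 3 wild-type and 4 null libraries. Tbx6, at 20.2 and 24.8, is highest in both genotypes, and Pcdh8, at 3.23 and 2.28, is lowest.

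The genes whose centred values were most like each member over the 7 libraries were found by Pearson correlation among 12574 genes. For Msgn1 they were Lrrk1, the growth factor gene Gdf11, which acts in the trunk-to-tail transition, and the protease gene Furin, with correlations of 0.996, 0.985 and 0.976. For Pcdh8 they were Lime1, Rgmb and the related protocadherin Pcdh19, at 0.995, 0.987 and 0.975; the table describes the Lime1 row by another gene that overlaps it, so its reads are uncertain. With Pcdh19, the correlation of Pcdh8 was 0.96 without wild-type B. For Tbx6 they were Cntrob, Tekt1 and Slc2a5 (0.979, 0.978 and 0.957), and for Snai1 Tnfaip8, 1110003E01Rik and Tspyl3 (0.981, 0.977 and 0.963). For Dll1 they were Zfp647, Thtpa and Itfg2 (0.991, 0.987 and 0.983), and for Dll3 Fuk, Mapk8ip2 and Haus8 (0.982, 0.981 and 0.976). With 7 points and this many genes, correlations of this size describe these libraries only.

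In the pathways around the members, no listed gene passed an adjusted p of 0.05 in limma. The counts of genes with an unadjusted p under 0.05 are to be read against the 14.0% of all tested genes that had one. Of the upstream and tailbud regulators, 19 of 20 listed genes were tested, 12 had a mean change above 0 and 7 below, with a median of 0.32 beside -0.03 over all genes, and 4 had an unadjusted p under 0.05. The smallest p values there belonged to Cdx4 and Cdx1, homeobox genes of axial elongation, whose changes were 0.44 (limma adjusted p = 0.212) and -0.43 (adjusted p = 0.352). Without wild-type B, the library low in Wnt3a and Cyp26a1, the median of the list was 0.07, beside -0.02 over all genes, with 13 changes above 0 and 6 below. Of 24 Notch receptors, ligands and machinery genes, 24 were tested, 10 had a change above 0 and 14 below (median -0.03), and 1 had an unadjusted p under 0.05. There the receptor gene Notch2 differed by -0.26 (limma adjusted p = 0.352) and Dlk1, a noncanonical ligand gene that is imprinted, by -0.27 (adjusted p = 0.362).

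Of 17 Notch and Tbx6 targets, 15 were tested and 2 had an unadjusted p under 0.05. Their changes were above 0 in 4 and below in 11, with a median of -0.09. Nkd1, a Wnt feedback inhibitor, differed by -0.20 (limma adjusted p = 0.302), and Nrarp, a Notch feedback inhibitor, by -0.20 (adjusted p = 0.352). Of 16 somite formation genes, 10 were tested and 0 had an unadjusted p under 0.05, with 3 changes above 0, 7 below and a median of -0.28, which was -0.06 without wild-type B. The smallest p values were those of Pax9, a gene of the forming sclerotome, at 1.87 (limma adjusted p = 0.352) and 0.82 without wild-type B, and of the ephrin gene Efnb2, at -0.13 (adjusted p = 0.354). Of 17 adhesion and epithelial-to-mesenchymal transition genes, 17 were tested and 4 had an unadjusted p under 0.05, with 5 changes above 0, 12 below and a median of -0.07. Cdh2, which encodes N-cadherin, differed by -0.20 (limma adjusted p = 0.352).

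Among the relatives of the members, 17 of 25 listed genes were tested, 7 had a change above 0 and 10 below (median -0.09), and 1 had an unadjusted p under 0.05. Snai2, the other Snail factor of migratory cells, had 282 to 611 reads per library. Snai3 had 0 in each wild-type library and 2 to 11 in the null libraries, too few for it to be tested, so no difference is read from them. Mesp1 had 2 to 71 reads. The Notch ligand genes Jag1, Jag2 and Dll4 had 2016 to 3181, 1012 to 1951 and 274 to 695 reads, and Jag2 differed by 0.26 (limma adjusted p = 0.362), or by 0.12 without wild-type B. Pcdh17, a relative of Pcdh8, differed by 1.08 (limma adjusted p = 0.352), or by 0.67 without wild-type B.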

How the data were processed

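The deposited table gives each gene's log2 RPM (reads scaled to a library denominator), per the file headers, for 3 wild-type and 4 null libraries. The build mm10 and the tools TopHat2 2.0.12, bcl2fastq and edgeR are named in the submitters' processing notes. How reads were counted, with which annotation and with or without strand, is not given in the sources used here. Column names hold the genotype without a sample number, so columns were mapped to groups, not to samples. Reads could be recovered, as 100% of values under 1000 reads came out whole within 0.01. A gene with no read is listed at 0.9 read. Libraries of a group differed by more than sampling noise.

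Genes with log2 RPM above 0 in at least 3 libraries were kept (13997). The genotypes were compared in R 4.3.3 with limma 3.58.1, with a prior trend, on values minus the autosomal median of each library, with Benjamini-Hochberg adjustment at 0.05 and 95% intervals. Ratios were tested by two-sided exact permutation. Figures were drawn with matplotlib 3.10.9 and tables made with pandas 2.3.3 and numpy 2.4.6 in Python 3.11.15. Levels used GENCODE M21 exon lengths. The members and lists were chosen with earlier results of these data known. Named genes were the members, Smchd1, the listed relatives, from each list up to 3 genes past the threshold or the 2 with the smallest p, and per member the 3 genes most like it with a mean log2 RPM of at least 1. Wnt3a, Cyp26a1, T, Nkx1-2, Sox2, Meox1, Tcf15, Sox1, Aldh1a2 and Epha4 fall outside this rule and were named after their values were seen. Alternatives were other scalings, filters, a pseudocount of 1, other priors, array weights, voom, a replicate block and leaving out each library. The count tests of edgeR and DESeq2 were planned for counts and were not run on this log2 table. On simulated data with 13997 genes, the fit recovered 86% of changes of 1 log2, with 8 false calls among 163.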

Additional observations from a re-analysis of the deposited data

Results flagged for a closer look

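Null library C was far from the other 3 null libraries in Pcdh8, with a centred log2 value of -2.06. The gap to its nearest neighbour was 0.901 of the range of the group, above Dixon's 95% critical value for 4 samples. The same library stood apart in 4 log2 ratios that contain Pcdh8: Tbx6 to Pcdh8 at 3.45, Snai1 to Pcdh8 at 2.75, Pcdh8 to Dll1 at -4.28 and Pcdh8 to Dll3 at -3.27. These 5 values share Pcdh8 and are not separate signals. Of 21 groups tested 5 stood apart, and chance gives about 1 in 20 groups. The wild-type group has 3 libraries and was not tested in this way, although wild-type C was lower still in Pcdh8, at -2.34.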

How the results depend on the processing

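Over 108 alternatives for the 6 changes, 101 kept their direction, 7 reversed it, and in 0 did a gene pass the threshold, with limma adjusted p from 0.223 to 0.994. Array weights gave -0.030 for Snai1 and 0.27 for Pcdh8, and the deposited scale gave 0.068 for Dll3. Leaving out each library gave -0.10 to 0.17 for Snai1 and -1.18 to 0.41 for Pcdh8. All genes called were 8 as reported, 19 with cyclic loess, 16 with quantile normalization, 13 with array weights, and 4 to 10 when each library was left out. Ratio differences that reversed did so when a library was left out. They ranged from -0.078 to 0.19 for Tbx6 to Snai1, -0.32 to 1.28 for Tbx6 to Pcdh8 and -0.23 to 1.67 for Msgn1 to Pcdh8. Those of Snai1 ranged from -0.51 to 1.32 to Pcdh8, -0.094 to 0.50 to Dll1 and -0.077 to 0.34 to Dll3. Pcdh8 to Dll1 ranged from -0.82 to 0.42, Pcdh8 to Dll3 from -0.99 to 0.43 and Dll1 to Dll3 from -0.16 to 0.017. Beyond the smaller number of samples, the cause was not tested.

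A replicate block on the last number of the column names gave changes of 0.08 (Tbx6), 0.32 (Msgn1), 0.04 (Snai1), -0.26 (Pcdh8), -0.20 (Dll1) and -0.11 (Dll3), and changed no call. Between the groups, libraries with the same number had deviations that correlated at 0.36, 0.20, 0.41 and -0.05. Those with different numbers correlated at -0.36 to 0.25. The numbers were not taken as pairs in the main fit, and what libraries of one number share was not tested. A block on the title numbers was not run, since the columns carry none, nor were edgeR, DESeq2 and the planned description of proteins. Each member had at least 185 reads in every library.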

Other observations

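Msgn1 and Mesp2, which mark the posterior and the anterior presomitic mesoderm, varied in opposite directions across the 7 libraries, with a Pearson correlation of -0.80 on the centred scale and of -0.86 without wild-type library B. Mesp2 had 3 to 184 reads per library, so its values carry counting error. Endothelial markers correlated above 0 with Msgn1 in 11 of 11 tested genes and with Pcdh8 in 0 of 11, beside 41.9% and 56.9% of all genes. The median correlations were 0.77 and -0.66, and without wild-type B, the library lowest in endothelial markers, they were 0.45 and -0.41. Other members shared these directions. Snai1 had 11 of 11 above 0 (median 0.84, and 0.58 without wild-type B). Dll1 and Dll3 had 0 of 11 (medians -0.55 and -0.77, and 0.56 and -0.41 without wild-type B). Tbx6 had 9 of 11 (median 0.22). These are descriptions of 7 points that share depth and tissue piece.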
